A study of Mus musculus with 36 samples.

Results

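Peripheral blood mononuclear cells (PBMCs) of old mice were profiled for single-strand breaks (SSBs) in 2 libraries, which are described here beside the 10 SSB libraries of the other 5 tissues (bone marrow, brain, heart, liver and sperm, 2 each). Both PBMC libraries were taken by their labels. They listed 220728 autosomal positions (PBMC 1) and 299884 (PBMC 2), which made 520612 of the 5417302 autosomal positions in all 12 SSB libraries. Each line of a list is 1 nucleotide and strand at which a break was seen. The labels name 2 male C57BL/6J mice of 24 months as the source of all tissues, with no treatment or genetic change named in the labels. PBMCs were taken from blood over Ficoll-Paque PLUS, red cells were lysed in bone marrow, the motile spermatozoa came from the epididymal tail, and whole brains, hearts and livers were ground. Sperm DNA was purified with another kit (Simgen) than all the other DNA (TIANamp, Tiangen). Age and sex did not vary, so the only comparisons were between tissues, between both libraries of a tissue, and with the abasic (AP) sites listed for the same samples.

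An SSB is a gap or nick in 1 of the strands of DNA, and an AP site is a nucleotide that has lost its base. SSBs arise from oxidised sugars, from topoisomerase 1 and as steps of base excision repair, and they are sealed after end cleaning by ligases with the XRCC1 scaffold. PBMCs are mostly resting T, B and NK lymphocytes with some monocytes. In B and T cells the antigen receptor loci are cut and rejoined by V(D)J recombination, which removes the DNA between the joined segments.

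PBMC 1 was the smallest of the 12 lists, and the other 10 held 231747 to 1021522 autosomal positions. Between 0.520% and 0.555% of the PBMC positions had a deposited count above 1, against 0.141% to 1.23% in the other libraries, and each position was counted once below. Every share is relative to its own library, so breaks per cell and the number of cells sampled cannot be told apart, and the lists do not give a total load of damage. Break positions are not expression and cannot check a cell type label. No control library without breaks was analysed here. The labels do not say which mouse gave which library, so p-values measure the spread between these libraries.

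In promoters, the bases next to PBMC breaks differed from those of all other libraries, with less cytosine on the 5′ side and more on the 3′ side. Bases were read in promoters, taken as the 300 bp from 250 bp before to 50 bp after a gene's start in the RefSeq table of GRCm38.p6. They held 1772 of the 220728 autosomal positions of PBMC 1 and 2307 of the 299884 of PBMC 2. Bases elsewhere in the genome were not read. Offsets are counted from the listed nucleotide on its listed strand, with negative numbers on the 5′ side. Below, 4 of these places are shown as 25 bases on the listed strand, the capitals marking the listed nucleotide and 3 bases on each side. The first 3 are promoter nucleotides listed in both PBMC libraries. The last had the highest count among promoter nucleotides listed in 1 PBMC library and in no other tissue.
Sp140: cttctctggTTCTGACttactaggg
Add3: ggggttaatTGCCAAAataaagcgg
Nxt1: tcgactcccGCCTCCCcgcgacggg
5430431A17Rik: gctgtagtgTGGGTACagacagtgt

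The Sp140 run is chr1:85600726-85600750 on the + strand, 35 bp after the start of this leukocyte nuclear body gene, and it had a count of 1 in each PBMC library and was in none of the other 10. Its 10 kb window (chr1:85600001-85610000) was among those densest in breaks over all libraries. It held 7 and 9 positions in PBMCs and 4 (bone marrow 2) to 29 (heart 2) in the other libraries. These counts are not scaled to the depth of each library. The Add3 run is chr19:53140237-53140261 on the − strand, 194 bp before the start of a gene of the membrane skeleton. It had counts of 1 and 2 in PBMCs and was listed in 4 of the other libraries. The Nxt1 run is chr2:148672592-148672616 on the − strand, in a CpG-rich promoter 11 bp before the start of a gene for mRNA export, and it was listed once in each PBMC library only. The 5430431A17Rik run is chr7:44484343-44484367 on the + strand, in a CpG-poor promoter 162 bp before the start, with a count of 3 in PBMC 2 and none in PBMC 1.

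Cytosine stood just 5′ of the break (offset −1) in 46.9% of the positions of PBMC 1 and 47.3% of PBMC 2. Their 95% Wilson intervals were 44.5% to 49.2% and 45.3% to 49.3%, which cover counting error only. The other 10 libraries ran from 52.2% to 57.5%, so both PBMC libraries lay below all of them. At offset −2 cytosine made 33.5% and 31.4% in PBMCs against 39.9% to 46.9%. Guanine there made 37.5% and 41% in PBMCs, where the other libraries ran from 27.8% to 39.1%, the highest being bone marrow. The 3′ side differed as well. Cytosine at offset +3 made 33.8% and 38.1% in PBMCs against 25.6% to 30.2%, and guanine 23.7% and 21% against 27.7% to 31.5%. Both PBMC libraries had less cytosine than all 10 others at each offset from −3 to 0, and more at each from +1 to +3.

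**Figure D1:**
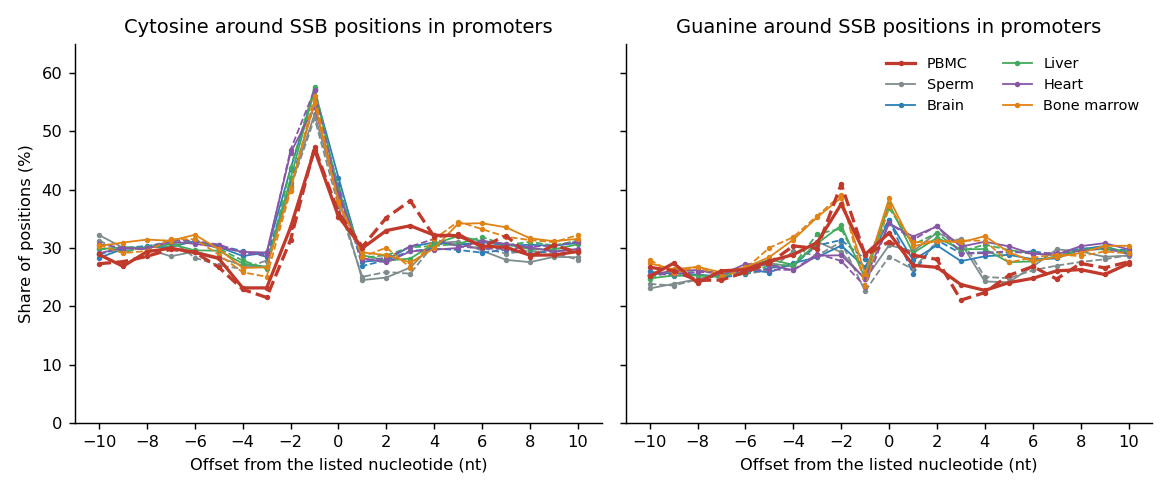
Share of SSB positions in promoters (y axis, %) with cytosine (left) or guanine (right) at each offset from the listed nucleotide (x axis, nt), one line per library, solid for library 1 and dashed for library 2 of each tissue. All libraries peak in cytosine at offset −1, where the PBMC lines (red) reach 46.9% and 47.3% against 52.2% to 57.5% in the others, and the PBMC lines lie above the others in cytosine and below them in guanine at +3.

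Of 84 base shares (4 bases at offsets −10 to +10), 31 had both PBMC libraries outside the range of the other 10, which was 36.9%. The 13 among the 28 nearest shares (offsets −3 to +3) were joined by 8 of the 24 farthest (offsets −10 to −8 and +8 to +10). Within promoters rich in CpG it was 14 shares (16.7%), of which 10 lay within −3 to +3 and 0 among the farthest. Within promoters poor in CpG it was 11 shares (13.1%), with 6 near and 2 far. The lower cytosine at −1 was seen in both classes: 51.2% and 51.5% against 55.7% to 61.9% in CpG-rich promoters, and 41.7% and 40.0% against 47.1% to 51.4% in CpG-poor ones. Cytosine on the 3′ side is not given by class here. Among the AP sites of the same samples only 2 of the 84 shares (2.38%) had PBMCs outside the range. These shares were looked at without a rule set in advance and have no test, and shares of 1 library are not independent of each other.

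PBMC breaks were less concentrated at gene starts than those of 8 of the other 10 libraries. Within 1 kb of the start of protein-coding genes their density was 1.94 and 1.93 times the autosomal mean. Brain libraries had 2.44 and 2.30, liver 2.48 and 2.60, heart 2.61 and 2.52, and bone marrow 3.50 and 3.02. Only sperm, at 1.88 and 1.86, was lower than PBMCs. The difference of PBMCs from the mean of the other 10 (2.52 ± 0.485 SD) was −0.583, and did not pass an exact two-sided permutation test (p = 0.182, adjusted p = 0.467 over 11 measures). With 2 libraries against 10 this test has 66 assignments, and its smallest p is 0.0152. It moves single libraries rather than whole tissues, although both libraries of a tissue were alike (within-tissue SD 0.149 for this measure).

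In bins of 250 bp the PBMC profile rose from 1.24 and 1.29 at 1.5 to 1.25 kb before the start to a peak of 2.39 and 2.41 in the first 250 bp of the gene. It was still 1.84 and 1.95 at 1 to 1.25 kb. Bone marrow averaged 5.01 in the same first bin, heart 3.43, liver 3.40, brain 3.19 and sperm 2.26. The bone marrow profile had fallen to 2.36 at 1 to 1.25 kb, so most of its distance from PBMCs lay close to the start. At transcript ends the PBMC profile was 1.98 and 1.88 in the bin from 500 to 250 bp before the end and 1.49 and 1.57 in the first bin after it. Over 1 kb on either side of the end PBMCs had 1.63 and 1.61 times the autosomal mean, within the other libraries' 1.54 to 1.90 (p = 0.530, exact permutation test).

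**Figure D2:**
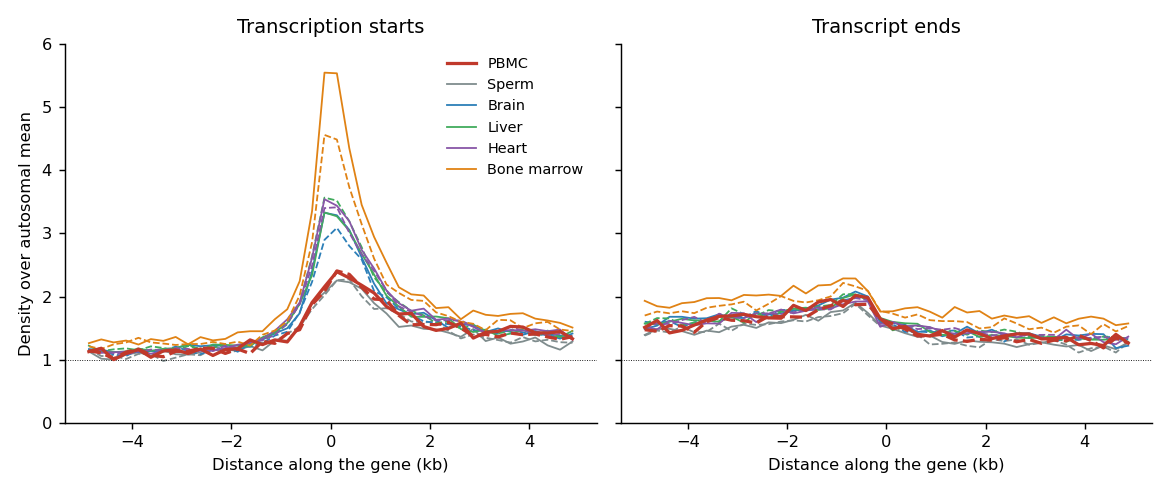
SSB density over the autosomal mean (y axis) by distance along protein-coding genes (x axis, kb) around the start (left) and the end (right), in bins of 250 bp, with solid lines for library 1 and dashed lines for library 2 of each tissue. PBMCs (red) peak at 2.39 and 2.41 just after the start, close to sperm at 2.26 and under bone marrow at 5.01.

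The promoters that set the tissues apart were those rich in CpG, the usual kind at broadly expressed genes. Promoters were ranked by CpG observed over expected and the top and bottom tertiles compared. In CpG-poor promoters PBMC densities of 1.77 and 1.66 times the autosomal mean lay within the 1.51 to 1.84 of the other 10. In CpG-rich promoters PBMCs had 2.45 and 2.40, between sperm (2.35 and 2.31) and brain (4.37 and 3.8), with bone marrow at 8.97 and 6.81. The ratio of CpG-rich to CpG-poor density was 1.38 and 1.45 in PBMCs, below all 10 others, of which sperm with 1.5 and 1.53 came next. Bone marrow had the highest ratios, 4.88 and 3.76. The difference of −1.35 from the mean of the other 10 did not pass the exact permutation test (p = 0.0909, adjusted p = 0.467). In the AP libraries of the same samples the ratio was 1.07 and 1.22 for PBMCs, inside the range of 0.942 to 1.46.

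Inside genes the PBMC breaks were among the most uneven between strands. Counted over 5 kb from either end of protein-coding genes that overlap no other gene, 44.0% of the positions of PBMC 1 and 44.4% of PBMC 2 were listed on the strand opposite to the gene. These shares rest on 65988 and 89621 positions. Sperm had 44.6% and 44.0%, so PBMCs and sperm overlap. Liver had 45.4% and 45.7%, heart 45.9% and 46.0%, brain 46.7% and 46.6%, and bone marrow 47.5% and 46.5%. PBMCs differed from the mean of the other 10 by −1.70 percentage points, which did not pass the exact permutation test (p = 0.0606, adjusted p = 0.467). The AP positions of the PBMC samples were nearer to balance, at 49.2% and 49.3% (other AP libraries 48.8% to 50.8%). Whether the listed strand is the broken one or its complement is not given in the sources used here, so the strands are named only as listed.

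**Figure D3:**
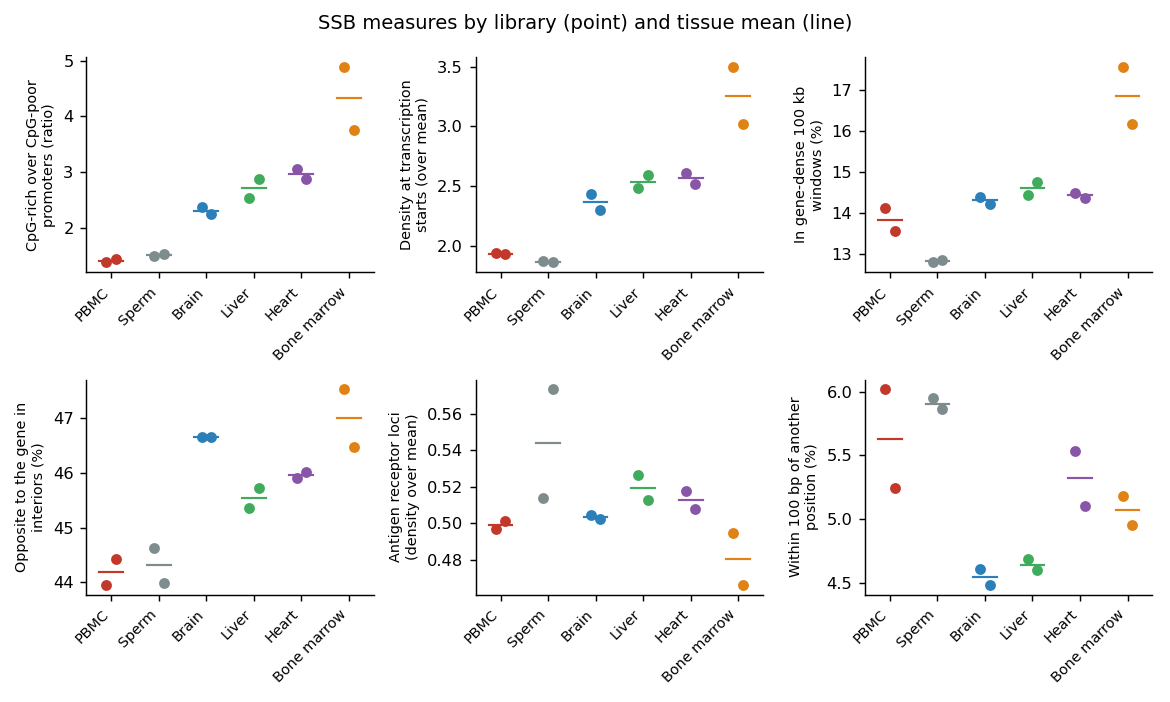
Measures of the 12 SSB libraries (points) with the mean of each tissue (lines), each panel on its own y axis, which does not start at 0. PBMCs are lowest in the CpG-rich to CpG-poor promoter ratio (1.38 and 1.45), next to sperm in the density at gene starts (1.94 and 1.93) and in the share opposite to the gene, and within the other tissues in antigen receptor loci.

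The other single measures of PBMCs lay within or near those of the other tissues. Genes spanned 49.4% of the autosomes and held 61.5% and 61.2% of the PBMC positions (others 60.0% to 63.7%, p = 0.727 by the exact permutation test). The 10.0% of the autosomes in gene-dense 100 kb windows held 14.1% and 13.6% (12.8% to 17.6%, p = 0.545 by the exact test). Windows with no base of a gene covered 15.1% of the autosomes and held 8.68% and 8.87% (7.18% to 9.82%, p = 0.803 by the exact test). The first 10 Mb of the chromosomes, next to the centromere in mice, held 7.0% and 7.10%, where the other libraries had 6.73% to 7.05% (p = 0.152, exact test). The last 10 Mb held 9.90% and 9.74% (9.55% to 10.5%, p = 0.667, exact test). The differences of the gene span, gene-free and last 10 Mb shares turned sign without bone marrow and had no direction to speak of. No adjusted p of the 11 measures was under 0.467.

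The share of positions that lay close together differed between both PBMC libraries. At equal depth (220728 positions a library) 6.02% of PBMC 1 and 5.24% of PBMC 2 had another position within 100 bp, against 4.48% to 5.95% in the others (difference 0.535 percentage points, p = 0.212, exact permutation test). On the same strand it was 4.47% and 3.63% in PBMCs, 4.40% and 4.38% in sperm, and 2.69% to 3.84% in the others. On the opposite strand PBMCs had 1.74% and 1.75%, where sperm had 1.70% and 1.63% and the others 1.89% to 2.41%. In the total and same-strand shares both PBMC libraries differed from each other by more than the libraries of any other tissue. The difference from the other tissues was 0.148 points without PBMC 1 and 0.921 without PBMC 2. At 1 kb in place of 100 bp the difference from the other libraries was −0.304 points.

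The antigen receptor loci, summed, were poor in breaks in PBMCs and in all other tissues. Over the 6 loci PBMCs had 0.497 and 0.501 times the autosomal density, on 400 and 548 positions, and the other libraries 0.466 to 0.573 (p = 0.379, exact permutation test). The heavy chain locus (chr12:113256204-116009954, with 215 gene segments) had 0.474 and 0.588 in PBMCs against 0.532 to 0.620. The T cell receptor alpha and delta locus (chr14:52427967-54224198) had 0.497 and 0.495 against 0.439 to 0.580. The T cell receptor beta locus (chr6:40891296-41558371) had 0.637 and 0.589 on 39 and 49 positions against 0.609 to 0.766. In the T cell receptor gamma locus the values were 1.06 and 0.782 on 17 positions each, so that PBMC 1 was near the autosomal mean, and those of the other libraries were 0.539 to 1.09. None of these loci set PBMCs outside the range of the other tissues in both libraries. The AP libraries of PBMCs gave 0.510 and 0.484 over all 6 loci, with 0.490 to 0.572 in the others.

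The PBMC difference in each of these 11 measures was set against the same difference in AP sites. None passed as a difference between SSBs and AP sites, the smallest p being 0.106 for the strand share (exact permutation test of SSB minus AP per sample, adjusted p = 0.417). At gene starts the AP density of PBMCs was 1.73 and 1.81, inside the 1.55 to 2.02 of the other AP libraries.

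No single gene was called different in PBMCs. LPKM here is positions on either strand per kb of gene per 1000000 autosomal positions, and an even spread would give 0.416. Of 37162 genes tested with edgeR's quasi-likelihood test, 0 passed an adjusted p of 0.05 (0.0%). At an unadjusted p under 0.05, 629 were higher in PBMCs (1.69%) and 879 lower (2.37%). That split was 884 higher and 621 lower with DESeq2 size factors, and 875 and 627 with library totals alone, so its direction depends on the scaling. DESeq2's own test called 0 and gave 326 at an unadjusted p under 0.05. Both PBMC libraries lay above all 10 others in 844 genes (2.27%) and below all 10 in 651 (1.75%).

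The genes with the smallest p among those with enough positions are given as not called. Rbm25 (chr12:83632208-83683127), a splicing regulator, had 0.712 and 0.917 LPKM in PBMCs on 8 and 14 positions. The other 10 libraries ran from 0.192 to 0.508, all below PBMCs (log2 difference 1.49, edgeR adjusted p = 0.844). Tgfa (chr6:86195038-86275744), a ligand of the EGF receptor, had 1.23 and 1.32 LPKM against 0.524 to 0.903. For Phf3 the PBMC values were 0.949 and 0.699 LPKM against 0.155 to 0.552, and the lncRNA genes Gm30164 and Gm30559 also lay above all 10 others. On the lower side, the sorting nexin gene Snx30 (chr4:59805131-59904740) had 0.182 and 0.335 LPKM on 4 and 10 positions against 0.487 to 0.996 (log2 difference −1.41, adjusted p = 0.594). Mink1, a kinase gene, had 0.171 and 0.441 LPKM against 0.551 to 1.39. AY036118, Gm31814 and Gm35880 were below all 10 others as well. These genes were picked by their p-values, so their lack of overlap is not evidence on its own.

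The genes with most PBMC breaks per length had them in all tissues. Sfi1 (chr11:3131850-3203347), which encodes a centrin-binding protein of the centrosome, had the highest LPKM of the protein-coding genes. PBMCs had 17.9 and 17.1 on 283 and 366 positions, and the other libraries 14.5 to 18.2 (log2 difference 0.01). LOC100504180 followed with 13.2 and 11.7 LPKM against 6.37 to 15.6. On chromosome 1 a group of genes of the Sp100 and Ugt1a neighbourhoods came next. Mroh2a had 5.78 and 5.95 LPKM (others 4.13 to 7.11) and Hjurp, a chaperone of the centromeric histone, 6.99 and 3.55 (others 3.53 to 7.51). C130026I21Rik had 3.92 and 4.57, Sp110 had 2.94 and 3.57, A530032D15Rik 2.45 and 3.01, Sp140 had 2.13 and 3.30 and Ugt1a2 had 2.10 and 2.41 LPKM. Muc6, a mucin gene on chromosome 7, had 2.89 and 1.52 against 0.830 to 2.29. Several of these have near-identical copies or overlapping spans (Sp110 with Sp140, Mroh2a with Hjurp), so that a position can count for 2 genes and a read may have fitted more than 1 copy.

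Lists of genes named for cell types showed no member past the threshold in PBMCs. Members higher and lower at an unadjusted p under 0.05 are counted beside the 1.69% and 2.37% of all genes. The T cell list (34 genes tested) had 0 higher and 0 lower even at an unadjusted p under 0.05, with a median log2 difference of 0.05, against −0.09 over all genes. Its density in PBMCs was 1.58 and 1.66 times the autosomal mean, against 1.44 to 1.70. Skap1, an adaptor of T cell receptor signalling, had 0.783 and 0.576 LPKM (others 0.459 to 0.728), and the kinase gene Fyn 0.672 and 1.01 (others 0.760 to 1.08). The B cell list (29 genes) had 2 higher and 1 lower and a density of 1.64 and 1.56 (others 1.47 to 1.69). Among its members Foxp1 had 0.675 and 0.748 LPKM (0.668 to 0.817), Ebf1 had 0.674 and 0.710 (0.539 to 0.803) and Bach2 0.560 and 0.691 (0.454 to 0.716). The NK list (20 genes) had 0 higher and 1 lower and the monocyte list (24 genes) 0 and 3. Monocyte genes had densities of 1.18 and 1.29 in PBMCs against 1.12 to 1.57. In none of these 4 lists did both PBMC libraries lie outside the range of the other tissues.

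Lists of other cell types were described the same way. Granulocyte genes had 0 higher and 1 lower of 20, with a PBMC density of 1.68 and 1.74 against 1.47 to 2.96. Erythroid and platelet genes had 0 and 0 of 22 and a density of 1.87 and 1.8 (others 1.62 to 2.33). Neuronal genes had 0 higher and 6 lower of 39, a larger share lower than the 2.37% of all genes. Their PBMC density was 0.859 and 0.866 against 0.718 to 1.02, and their median log2 difference −0.10, near that of all genes. These 39 genes spanned 45390 kb and each held at least 20 PBMC positions. The share lower was not compared with that of genes of equal length. Cardiac muscle genes had 0 and 0 of 27 and a density of 1.382 and 1.408 (1.293 to 1.405). Hepatocyte genes had 0 and 1 of 30, spermatid genes 0 and 1 of 27.

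Lists of functions were close to the rest too. SSB repair genes had 0 higher and 0 lower of 31 and a density of 1.41 and 1.32 (others 1.26 to 1.64). Immediate early genes had 0 and 0 of 30 with a density of 2.19 and 2.40 (1.87 to 3.30). Ribosomal protein genes, short and with CpG-rich promoters, had 1 and 1 of 83 with a density of 1.87 and 2.09 (1.79 to 4.12). Histone cluster genes had 0 and 0 of 47 and 2.01 and 2.37 (1.46 to 3.64), and interferon-stimulated genes 0 and 1 of 27. Olfactory receptor genes had 12 higher and 1 lower of 865, both smaller shares than over all genes (1.69% and 2.37%), and a density of 1.44 and 1.37 against 1.30 to 1.58. The list had 282 and 365 positions in PBMCs in all, under 1 per gene in each library, and a median log2 difference of −1.12.

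Among 23971 windows of 100 kb, 1 was called in PBMCs (0.00417%). It was chr17:39800001-39900000, which holds AY036118 and Rn18s-rs5, a copy of ribosomal RNA sequence. PBMCs had 494 and 393 of every 1000000 autosomal positions there (ppm). Bone marrow had 1073 and 1195, liver 866 and 840, brain 750 and 611, heart 724 and 636, and sperm 463 and 514. PBMCs were below 9 of the 10 others in both libraries and above sperm 1 in PBMC 1 (log2 difference −0.74, edgeR adjusted p = 3.14e-08). Without PBMC 2 the call was lost (log2 difference −0.56, adjusted p = 0.585). Both PBMC libraries lay above all 10 others in 625 windows (2.61%) and below all 10 in 600 (2.5%).

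The windows with the largest PBMC share were mostly shared with the other tissues. First was chr11:3100001-3200000 with Sfi1, at 1495 and 1397 ppm (others 1176 to 1476). The Ugt1a window at chr1:88200001-88300000 had 462 and 370 (317 to 443). A few lay above most or all of the others and were not called. The window chr17:3000001-3100000, with the pseudogene Pisd-ps2, had 195 and 220 ppm against 113 to 180 (log2 difference 0.60, edgeR adjusted p = 0.472). The window chr15:75000001-75100000, with Ly6c1, a surface protein of monocytes, had 168 and 160 against 105 to 153 (adjusted p = 0.942). Within it, chr15:75080001-75090000, which overlaps no gene, held 32 positions of PBMC 1 and 39 of PBMC 2. The other libraries had 27 (bone marrow 2, of 231747 autosomal positions) to 111 (heart 2, of 1021522) in that stretch. These counts are not scaled to depth, so they do not rank PBMCs among the libraries. The window with Hmx1 at chr5:35400001-35500000 had 163 and 117 against 58.3 to 128, above 9 of the others. The windows of Etv1 (77.0 and 83.4 against 21.6 to 57.1) and Ahr (95.1 and 80.0 against 14.6 to 59.4) were among the smallest p-values on the higher side, both with an edgeR adjusted p of 0.454. The Etv1 window held 17 and 25 PBMC positions and the Ahr window 21 and 24. Both were picked by their p-values, so their lack of overlap is not evidence on its own.

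Of 2413 windows of 1 Mb, 1 was called (0.0414%), again on chromosome 17 (chr17:39000001-40000000). It had 580 and 474 ppm in PBMCs against 541 to 1282 (log2 difference −0.65, edgeR adjusted p = 5.6e-07), and −0.49 with an adjusted p of 0.275 without PBMC 2.

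Against single tissues, most windows were called between PBMCs and bone marrow, then between PBMCs and sperm, and few against brain, heart or liver. Whether these contrasts differ from each other was not tested, and they were added after values had been seen. Against bone marrow 234 of the 2413 windows were called (9.7%), 32 higher and 202 lower in PBMCs. Without TMM scaling it was 224, with 80 higher and 144 lower. Against sperm 53 were called (2.2%), 34 higher and 19 lower, and 21 and 23 without TMM, so the direction of this split depends on the scaling. Against brain 4 were called (0.166%), against heart 1 (0.0414%) and against liver 1 (0.0414%). All these contrasts share the PBMC libraries. They also rest on single libraries. Without bone marrow 1 only 20 windows were called against bone marrow and without PBMC 2 only 69. Without PBMC 1 only 4 were called against sperm, without sperm 1 only 8 and without PBMC 2 33.

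The windows lower in PBMCs than in bone marrow were gene-rich. Those 202 held a median of 22 protein-coding genes, against 6 over all windows, and the 32 higher ones a median of 2. An example is chr10:80000001-81000000, with 54 protein-coding genes, among them Gpx4, Stk11 and Polr2e. PBMCs had 933 and 860 ppm and bone marrow 1434 and 1247 (log2 difference −0.68, edgeR adjusted p = 1.62e-07), with sperm at 820 and 765. In chr11:69000001-70000000 (63 genes, among them Aurkb and Per1) PBMCs had 707 and 724 and bone marrow 1102 and 1105. On the higher side, the 2 examples held more protein-coding genes than that median. The Serpinb window (chr1:107000001-108000000, 10 genes) had 249 and 330 in PBMCs and 171 and 164 in bone marrow (log2 difference 0.74, edgeR adjusted p = 0.00202). The remaining tissues ran from 209 (brain 1) to 302 (sperm 2), so PBMC 1 lay among them. The window of Vmn2r genes of vomeronasal receptors (chr7:9000001-10000000, 8 genes) had 54.4 and 63.4 in PBMCs, on only 12 and 19 positions. Bone marrow had 13.3 and 17.3 there, and any other library at most 40.1.

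Against sperm the order was the opposite. The 34 windows higher in PBMCs held a median of 15 protein-coding genes and the 19 lower ones a median of 1. The 5 lower windows of smallest p each held 1 protein-coding gene. In that of Lsamp, a neural adhesion gene (chr16:40000001-41000000), PBMCs had 313 and 377 ppm and sperm 522 and 561 (log2 difference −0.60, edgeR adjusted p = 0.015), with bone marrow at 288 and 319. Chl1 (chr6:103000001-104000000) gave 245 and 270 against 419 and 404. Ctnna2 (chr6:76000001-77000000) gave 168 and 163 against 292 and 280. Macrod2 and Sorcs1 windows were lower than in sperm as well. On the higher side, the window of Glo1 and Glp1r (chr17:30000001-31000000) had 661 and 694 in PBMCs and 446 and 433 in sperm (log2 difference 0.65, adjusted p = 3.58e-04).

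Over all windows the same order was seen as a gradient. Against bone marrow the median log2 difference of PBMCs went from 0.21 in the 210 windows without a protein-coding gene, through 0.12 (1 to 4 genes) and −0.02 (5 to 14), to −0.25 in the 472 windows with 15 or more. Against sperm it went from −0.20 through −0.12 and 0.05 to 0.14. Against brain, heart and liver all medians stayed between −0.06 and 0.04. Windows are not replicates and the gradient has no test.

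**Figure D4:**
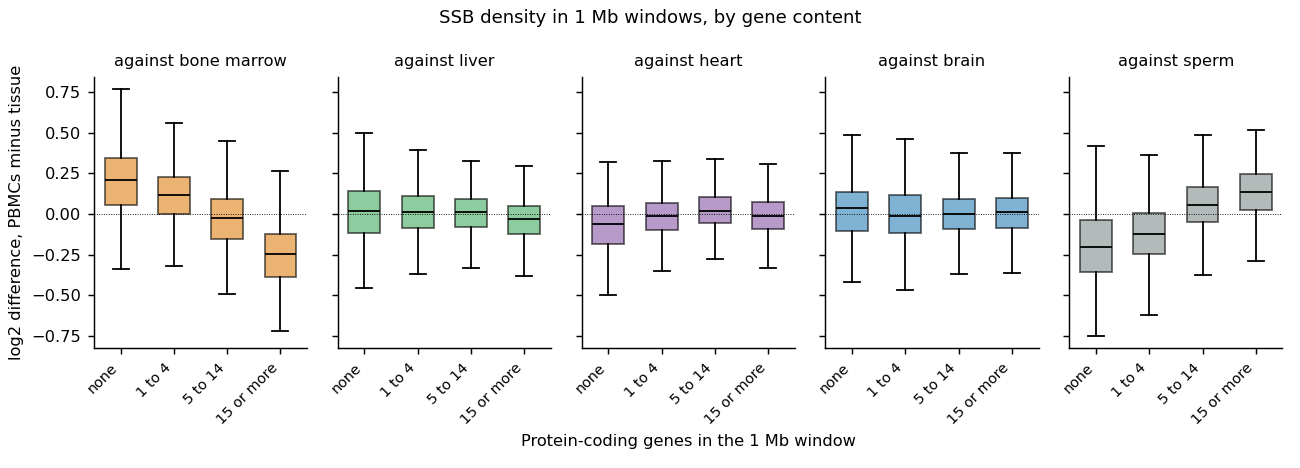
Log2 difference in SSB density of PBMCs minus each tissue (y axis) in 1 Mb windows grouped by their number of protein-coding genes (x axis), with the median as line, the middle 50% as box and whiskers to 1.5 box lengths. The median falls from 0.21 to −0.25 against bone marrow and rises from −0.20 to 0.14 against sperm, and stays near 0 for liver, heart and brain.

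Both PBMC libraries listed 279 autosomal nucleotides on the same strand. Positions spread evenly over the autosomes, with no allowance for sequence that cannot be mapped, would share 13.8, which makes a ratio of 20.3 (95% Poisson interval 18.0 to 22.8, counting error only). This was the highest of all 66 pairs of SSB libraries. The bone marrow pair had 19.8 with an overlapping interval (18.0 to 21.8), and the other same-tissue pairs 15.5 (liver), 12.6 (sperm), 12.3 (brain) and 12 (heart). The 20 pairs of a PBMC library with one of another tissue ran from 9.11 to 17.6. When nucleotides seen in other tissues were left out of each pair, the PBMC ratio was 16.5 and that of bone marrow 17.0.

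**Figure D5:**
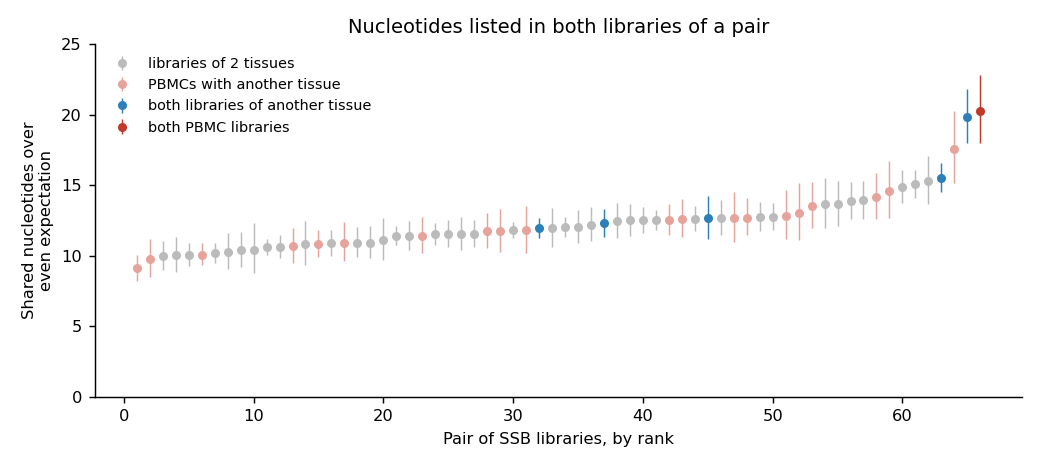
Nucleotides listed in both libraries of a pair over the number expected from an even spread (y axis), for all 66 pairs of SSB libraries in rank order (x axis), with 95% Poisson intervals. The PBMC pair (red) is highest at 20.3, next to the bone marrow pair at 19.8, and pairs of PBMCs with other tissues (pink) run from 9.11 to 17.6.

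Of the 279 nucleotides, 222 (79.6%) were in none of the other 10 SSB libraries, 21 were in 1, and 10 were in all 10. The same share over all PBMC positions is not given here. Absence from the other libraries therefore does not mark a nucleotide as particular to PBMCs. In 233 of the 279 the deposited count was 1 in both PBMC libraries. Genes held 162 of them (58.1%), near the share of all PBMC positions. The 10 kb windows densest in breaks over all libraries held 42 of them (15.1%), where they held 0.680% and 0.637% of all positions of PBMC 1 and PBMC 2. Another shared nucleotide lay within 100 bp of 31 of them. The AP libraries of PBMC 1 and PBMC 2 listed 15 and 12 of them.

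The shared nucleotides with the highest counts were common to all tissues. chr2:98667333 (+ strand) had counts of 51 and 88 and chr10:72297177 (− strand) of 30 and 40, neither in a gene. chr7:104428093 (+ strand) in Trim30a, an interferon-inducible gene, had 31 and 39, and its neighbour on the 3′ side 15 and 23. All 4 were listed in each of the other 10 SSB libraries. In Eef2, which encodes a translation elongation factor, chr10:81182496 had counts of 4 and 5 and was listed in 7 of the other 10.

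Sfi1 held more of the shared nucleotides than any other gene, 11, and Trim30a came next with 3. All 11 in Sfi1 lay in the 10 kb windows densest in breaks over all libraries, and 6 of them were in no other tissue. Srrm4, a neural splicing regulator, held 2 neighbours, chr5:116582245 and chr5:116582246 on the − strand. The second had a count of 3 in each PBMC library and neither was listed in any other tissue or in the AP libraries of PBMCs. Adssl1 (chr12:112634674 and chr12:112634676, + strand) and Prkce (chr17:86225839 and chr17:86398040, − strand) also held 2 each that were in PBMCs alone, with counts of 1 or 2. The LPKM of these genes did not stand apart, with 0.739 and 0.827 for Srrm4 (others 0.450 to 0.779) and 0.638 and 0.776 for Prkce (others 0.572 to 0.881).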

How the data were processed

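The authors deposited, for each sample, lists of single-nucleotide break positions with a strand and a count, made from reads with their own code on GRCm38/mm10 per the labels; aligner and filters were not given in the sources used here. The deposited count was used only in an alternative, and every position otherwise counted once. Libraries were grouped by the labels' tissue. Positions were counted in 47038 autosomal RefSeq genes of GRCm38 and in 100 kb and 1 Mb windows; strand and gene ends were known for 16456 of 20661 protein-coding genes, and the rest were left out of those measures. Exons and introns were not analysed here. Genes or windows with a position in at least 20% of the libraries were tested with edgeR 4.0.16 (TMM, quasi-likelihood, Benjamini-Hochberg over all features), as PBMCs minus the mean of the other 5 tissues, in 1 fit of 12 libraries, and the code was tested on simulated data. Single values were compared with exact permutation tests over libraries, two-sided. Alternatives used DESeq2 1.42.0, limma 3.58.1 on log2(LPKM + 1), libraries thinned to 220728 positions, other windows, a replicate block and each library left out. Named genes were those past the threshold, otherwise the 5 of smallest p per direction with at least 20 PBMC or 100 other positions, the 10 protein-coding genes of highest PBMC LPKM, the 5 longest members per list with 20 positions, the genes with most shared nucleotides and the 10 windows of largest PBMC share; those given are a selection of them. Members and lists were chosen with earlier results of these data known. Contrasts against single tissues and base shares were added after values were seen. Depth and replicates (2 libraries a tissue) limit single genes most.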

Additional observations from a re-analysis of the deposited data

How the results depend on the processing

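Of the main results, most kept their direction and side of the threshold. Genes called were 0 except with limma on log2(LPKM + 1), which called 23 (22 higher), and with summed deposited counts, which called 1, Trim30a. The 100 kb windows called were 2 with limma, 4 with summed counts, and 0 to 1 with each library left out. The 1 Mb windows called were 4 with summed counts, 5 without sperm, and 1 to 3 with each library left out. Windows differing from bone marrow were 130 after thinning, 145 when only the 4 libraries compared were fitted and 20 to 277 with each library left out; those differing from sperm were 25 after thinning and 4 to 66. The difference in the share within genes turned to 0.28 without bone marrow (−0.31 to 0.095 with each library left out), that in gene-free windows to −0.22 (−0.095 to 0.197 with each library left out), and that in the last 10 Mb to 0.028; close positions turned to −0.30 at 1 kb and ran from 0.148 to 0.921 with each library left out. The shared-nucleotide ratio was 11.8 with strand ignored, 7.99 within 5 bp, 17.4 without dense windows and 16.5 without nucleotides of other tissues. The last 4 match or leave out other nucleotides by their definition, and the cause of the changes was not tested.

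The labels do not say whether equal replicate numbers mark the same mouse. The correlation of the PBMC difference between libraries 1 and 2 with that of the other tissues ran from −0.071 to 0.035 over 1 Mb windows. Counting error in the windows also lowers such a correlation, so it cannot decide whether the libraries are paired. With a replicate block 0 genes, 1 window of 100 kb, 1 window of 1 Mb, 225 windows against bone marrow and 64 against sperm were called, and the exact permutation p of gene starts was 0.194. Leaving out a PBMC library left single measures as values with no test.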
